A study of Homo sapiens with 30 samples.

Results

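Interferon-stimulated genes are the antiviral and regulatory genes that a cell switches on through interferon signalling. A list of 39 of them was looked up by symbol in a table of 5′ end fragments at the transcription starts of 16009 genes, and 32 were found there. The other 7 (MX2, IFI27, HERC5, RSAD2, XAF1, BST2 and PARP12) are not in the table and are not analysed here. The members were looked up by name, and the list was chosen with earlier results of these data known.

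The libraries come from MEL624, a human melanoma cell line, and form 4 groups of 3, called biological replicates in the design text. They are immunoprecipitations (IPs) from PCIF1 knockout (KO) cells, IPs from control cells, inputs from KO cells, and inputs from control cells. The control cells were wild type and carried a random guide RNA, and all of these IPs used antibody 4 of the 8 that the study tried. Whether the 3 KO samples share 1 clone is not stated, so that the loss of PCIF1 and a feature of 1 clone cannot be told apart. The labels name no interferon treatment in either genotype.

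Interferon binds receptors on the cell surface, and the kinases JAK1 and TYK2 then phosphorylate transcription factors, STAT2 among them. With IRF9 these form a complex that binds a sequence element, the interferon-stimulated response element (ISRE), near the starts of many interferon-induced genes. PCIF1 methylates adenosine where it is the first transcribed base beside the cap, giving m6Am. In m6Am-Exo-Seq, uncapped RNA fragments are digested and an antibody to m6A, which also binds m6Am, is used to pull down methylated capped 5′ ends. Some products of these genes read the cap itself, as IFIT1 does with caps that lack ribose methylation.

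The promoter sequences of 9 members with a called change are shown. In KO cells OAS1 and IFITM3 had lower input and lower enrichment, OAS3, IRF1, B2M, IFIH1 and ISG15 lower enrichment, IFI16 higher enrichment and IFIT1 lower input. These sequences were not tested against any result below. They come from RefSeq on GRCh38.p14 and are written 5′ to 3′ on the gene's own strand, ending 10 bases into the transcript. The capital letter near the end of each is the annotated first transcribed base, and the other capitals are matches to the ISRE core, which was searched on both strands as GAAA, any 2 bases and GAAA again, or TTTC, any 2 bases and TTTC again.
OAS1 (chr12:112906902-112906971, plus strand): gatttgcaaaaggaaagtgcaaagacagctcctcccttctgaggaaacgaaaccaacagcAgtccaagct
OAS3 (chr12:112938321-112938483, plus strand): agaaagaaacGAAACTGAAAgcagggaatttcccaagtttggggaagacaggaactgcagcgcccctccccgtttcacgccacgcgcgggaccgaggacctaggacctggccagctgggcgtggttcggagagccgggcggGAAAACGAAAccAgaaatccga
IRF1 (chr5:132490764-132490833, minus strand): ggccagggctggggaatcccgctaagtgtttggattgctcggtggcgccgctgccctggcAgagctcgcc
B2M (chr15:44711363-44711526, plus strand): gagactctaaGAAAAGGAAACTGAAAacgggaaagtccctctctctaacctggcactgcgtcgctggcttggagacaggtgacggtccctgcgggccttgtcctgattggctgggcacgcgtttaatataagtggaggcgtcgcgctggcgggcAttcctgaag
IFIH1 (chr2:162318675-162318853, minus strand): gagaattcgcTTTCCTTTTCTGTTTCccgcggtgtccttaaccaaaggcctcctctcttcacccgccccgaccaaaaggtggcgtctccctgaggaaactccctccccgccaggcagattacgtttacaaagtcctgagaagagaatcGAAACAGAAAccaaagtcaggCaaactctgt
ISG15 (chr1:1013374-1013506, plus strand): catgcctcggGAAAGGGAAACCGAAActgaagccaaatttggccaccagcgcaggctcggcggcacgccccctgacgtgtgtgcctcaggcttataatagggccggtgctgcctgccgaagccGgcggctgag
IFITM3 (chr11:320851-320930, minus strand): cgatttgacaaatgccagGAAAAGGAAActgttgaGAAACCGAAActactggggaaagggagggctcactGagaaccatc
IFI16 (chr1:159009847-159009916, plus strand): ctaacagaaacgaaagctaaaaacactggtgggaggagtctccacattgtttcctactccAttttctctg
IFIT1 (chr10:89392497-89392632, plus strand): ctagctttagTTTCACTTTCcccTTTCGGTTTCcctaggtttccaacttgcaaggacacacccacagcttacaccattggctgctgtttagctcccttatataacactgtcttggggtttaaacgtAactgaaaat

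Promoter windows of 300 bases (250 before and 50 after the start) were at hand for 26 of the 32 members, some with several starts. The ISRE core stood in 22 of their 34 windows (64.7%), against 1255 of 35116 windows of all genes (3.57%). The gamma-activated site TTCNNNGAA, which reads the same on both strands, stood in 8 of the 34 (23.5%), against 7.66% of all windows. OAS1, IRF1 and IFI16 above hold no match to the ISRE letters in these windows, although shorter runs resembling them can be seen upstream of the OAS1 and IFI16 starts.

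The reads behind the table set how much can be seen. KO IPs held 1753164 to 2177874 reads in the listed genes, control IPs 4035815 to 4625190, KO inputs 2836120 to 3544669 and control inputs 3232562 to 4094070. Mitochondrial genes took 1.95% ± 0.359 of the reads in KO IPs and 0.946% ± 0.152 in control IPs (SD, n = 3 each). In inputs they took 0.727% ± 0.112 in KO cells and 1.12% ± 0.133 in control cells. Small nucleolar RNA genes took 4.71% ± 0.158 in KO IPs and 1.60% ± 0.0920 in control IPs. In inputs these took 4.32% ± 0.171 in KO cells and 4.55% ± 0.352 in control cells. The part of these shifts in the results below was not tested. Start fragments of PCIF1 itself were higher in KO inputs (70.3, 77.9 and 77.0 CPM) than in control inputs (57.8, 52.5 and 49.3 CPM), and since the edit may not touch the counted fragments, this says nothing about the labels. CPM is the read count relative to library size, after the authors' scaling. Of 7 melanocyte lineage markers only MITF was in the table (2.92 to 5.72 CPM in KO IPs, 11.4 to 12.9 CPM in control IPs, 9.09 to 10.6 CPM in KO inputs and 8.17 to 14.0 CPM in control inputs), and none of 15 leukocyte, fibroblast, endothelial and keratinocyte markers was.

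Enrichment is the log2 difference IP minus input within a genotype. In KO cells, IFIT1 (4.21), SAMD9 (2.89), IFIT2 (2.54), IFIT3 (1.98) and IFI16 (1.86) were the most enriched members, while OAS2 (-3.29), ISG15 (-2.09), IRF9 (-1.33), IFI6 (-1.27) and USP18 (-1.25) were the most depleted of those that passed the test (IFIT1 and OAS2 each rest on a group with 1 read, as described below). In control cells, SAMD9 (2.83), IFIT3 (2.03), IFITM3 (1.81), OAS1 (1.81) and IFIT2 (1.75) were the most enriched of those that passed the test, and none was depleted beyond it. IFIT1 (1.77) lay above IFIT2 and did not pass (adjusted p = 0.0697). A member was called where the limma test over all 12 libraries gave a Benjamini-Hochberg adjusted p under 0.05 over all 16009 genes. In KO cells 10 of 32 members were higher in the IP, beside 28.4% of all genes, and 8 were lower, beside 31.0%, so that neither share stood far from that of all genes. In control cells 15 of 32 were higher, beside 27.7% of all genes, and 0 were lower, beside 28.2%. At an unadjusted p under 0.05, 20 members differed in KO cells, beside 63.5% of all genes. In control cells 17 members were higher at that p, beside 29.7% of all genes, and 0 were lower, beside 30.4%. The members' median enrichment was 0.37 in KO cells and 0.58 in control cells, against -0.07 and -0.01 over all genes in the same order.

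The level at which enrichment is read depends on the scaling. When libraries were centred on 79 ribosomal protein mRNAs, the median over all genes moved to 0.56 for KO enrichment and 1.13 for control enrichment, and members called became 20 higher and 2 lower in KO cells and 25 higher in control cells. Under that scaling OAS3 in KO cells turned to 0.10 (adjusted p = 0.539), and IFI6, IRF9, USP18, DDX60 and B2M were no longer called lower there (adjusted p 0.0912 to 0.525). The share of all genes called on ribosomal protein centring is not given, so that the counts on it are no result about the members. The directions of enrichment given below hold on the deposited scaling.

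9 members were enriched in both genotypes: IFIT2, IFIT3, OAS1, IFITM2, IFITM3, PARP14, SAMD9, EIF2AK2 and IFI16. IFI35, IFIH1, STAT2, IRF1 and ADAR passed in control cells and not in KO cells, and OAS3 was lower in KO IPs and higher in control IPs than in their inputs. IFIT1 passed in KO cells and not in control cells. ISG15, OAS2, IFI6, IRF9, USP18, DDX60 and B2M were lower in KO IPs than in KO inputs and did not differ beyond the test in control cells. The other 9 (IFIT5, MX1, OASL, IFI44, IFI44L, IRF7, IFITM1, PARP9 and DTX3L) passed in neither. The share of all genes in each of these classes is not given, so that the classes only list the members. Passing in 1 genotype does not show a difference between genotypes, which is tested as the change of enrichment below. Several of these calls were lost when 1 library was left out. With all libraries, OAS3, STAT2, EIF2AK2 and ADAR passed narrowly in control cells (adjusted p 0.0287 to 0.0483). The control enrichment of OAS3 was 0.26 to 0.35 in the fits that lost its call, against 0.30 with all libraries. In control cells the call was lost for OAS3 without any 1 control IP, any 1 control input, or KO input 1 or 2 (adjusted p 0.0515 to 0.139), for STAT2 without control IP 1 or 2 or control input 1 or 2 (0.108 to 0.135), for EIF2AK2 without control IP 1 or 3 or control input 2 or 3 (0.0558 to 0.212, and 0.26 in place of 0.40 without control IP 3 or control input 2), and for ADAR without control IP 1 or 2 or control input 2 or 3 (0.0681 to 0.141). In KO cells it was lost for IFI6 and IRF9 without KO IP 1 or KO input 3 (0.0735 to 0.156, with values of -0.83 and -0.75 without KO IP 1), and for DDX60 without KO IP 1 or KO input 1 or 3 (0.0554 to 0.0644).

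**Figure D1:**
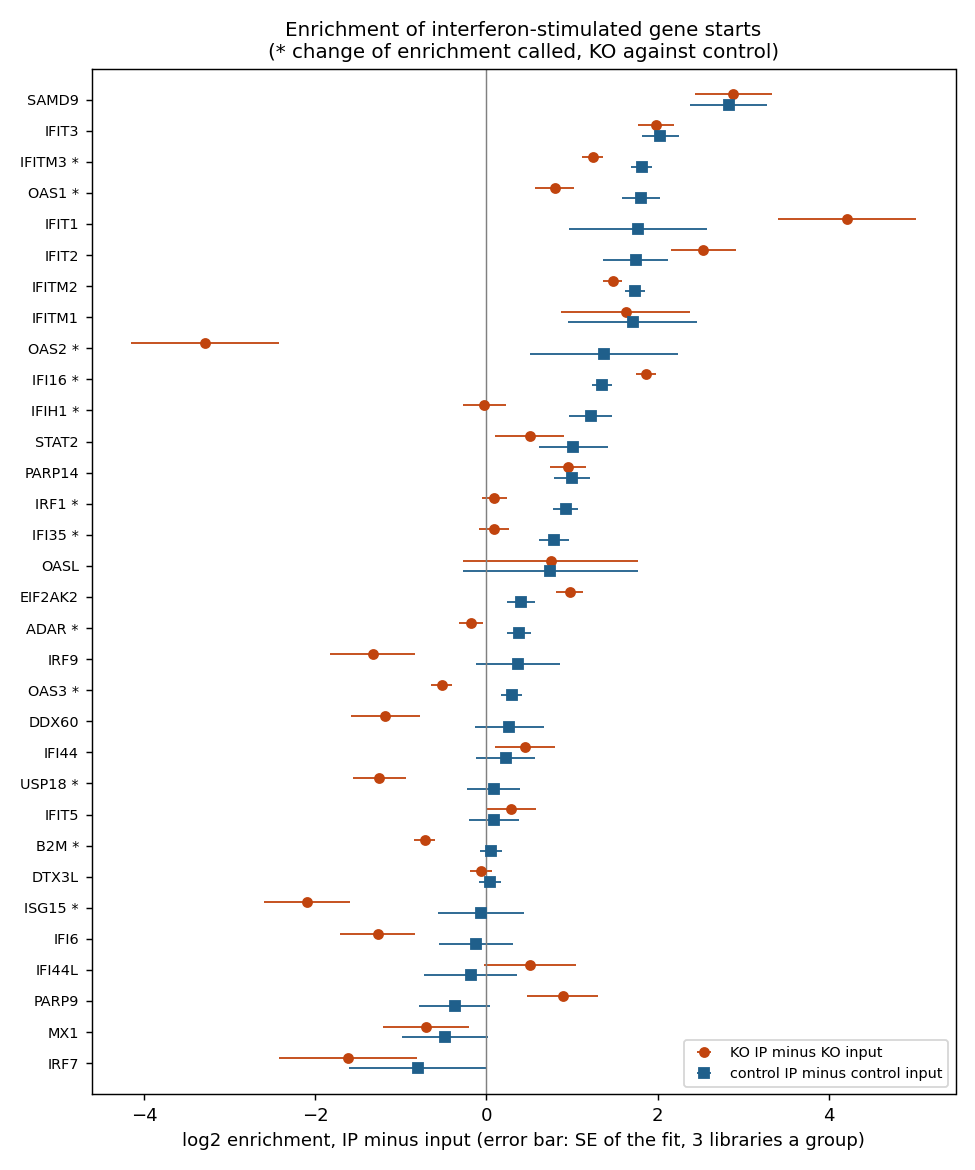
Log2 enrichment (IP minus input) of the 32 members in KO cells (orange circles) and control cells (blue squares), with the standard error of the fit as bars and 3 libraries a group. Members run from the highest to the lowest control enrichment, from 2.83 for SAMD9 to -0.79 for IRF7, and a star marks those whose enrichment differed between genotypes.

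The highest and lowest members in control cells show the range. SAMD9, which restricts poxviruses, gave 3.43, 7.79 and 11.4 CPM in KO IPs, 8.62, 8.40 and 15.5 CPM in IPs of control cells, 1.15, 0.812 and 0.650 CPM in KO inputs, and 1.61, 1.15 and 1.46 CPM in control inputs. Every IP stood above every input of its genotype, and the groups of IPs overlapped. Its enrichment was 2.89 ± 0.45 (SE) in KO cells and 2.83 ± 0.45 in control cells, and its change of enrichment was 0.05 ± 0.64 (adjusted p = 0.961). The 3 lowest were IRF7, MX1 and PARP9, none called in either genotype. IRF7 rested on 0 to 8 reads a library, with 0, 0.487 and 0.572 CPM in KO IPs, 1.16, 0.787 and 0.762 CPM in IPs of control cells, 0.861, 1.08 and 0.650 CPM in KO inputs, and 2.15, 0.916 and 2.04 CPM in control inputs. MX1, a GTPase that blocks influenza and other viruses, gave 7.85, 0.974 and 3.43 CPM in KO IPs, 4.19, 3.15 and 4.06 CPM in IPs of control cells, 5.45, 3.79 and 5.85 CPM in KO inputs, and 5.64, 5.04 and 5.25 CPM in control inputs. The KO IPs of MX1 spread from below to above all other libraries, while its control IPs all lay under its control inputs (-0.48 ± 0.50, adjusted p = 0.431).

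Enrichment at these starts was more often lower than higher in KO cells. OAS2, ISG15, USP18, IFIH1, OAS1, IRF1, OAS3, B2M, IFI35, IFITM3 and ADAR were lower, by 4.67 to 0.56 on the log2 scale, and the DNA sensor gene IFI16 was higher by 0.51. These 11 lower and 1 higher of 32 stand beside 15.8% and 13.0% of all genes, and beside 19.9% and 10.2% of protein-coding genes. The median change of enrichment (KO enrichment minus control enrichment, the interaction term) was -0.39 over the members, -0.06 over all genes and -0.18 over protein-coding genes. Without KO input 1 the count fell to 6 members, and without control IP 1 or control input 2 to 7 each. Without the mean-variance trend ISG15, IFI35, IFITM3 and ADAR missed the threshold (adjusted p 0.0874 to 0.114). OAS2, OAS3, IFIH1, IRF1 and B2M were called with any 1 of the 12 libraries left out. With ribosomal protein centring the count was 0 higher and 16 lower, against a median over all genes of -0.57, and IFI16 lost its rise (-0.0052, adjusted p = 0.984). The share of all genes called on that centring is not given.

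**Figure D2:**
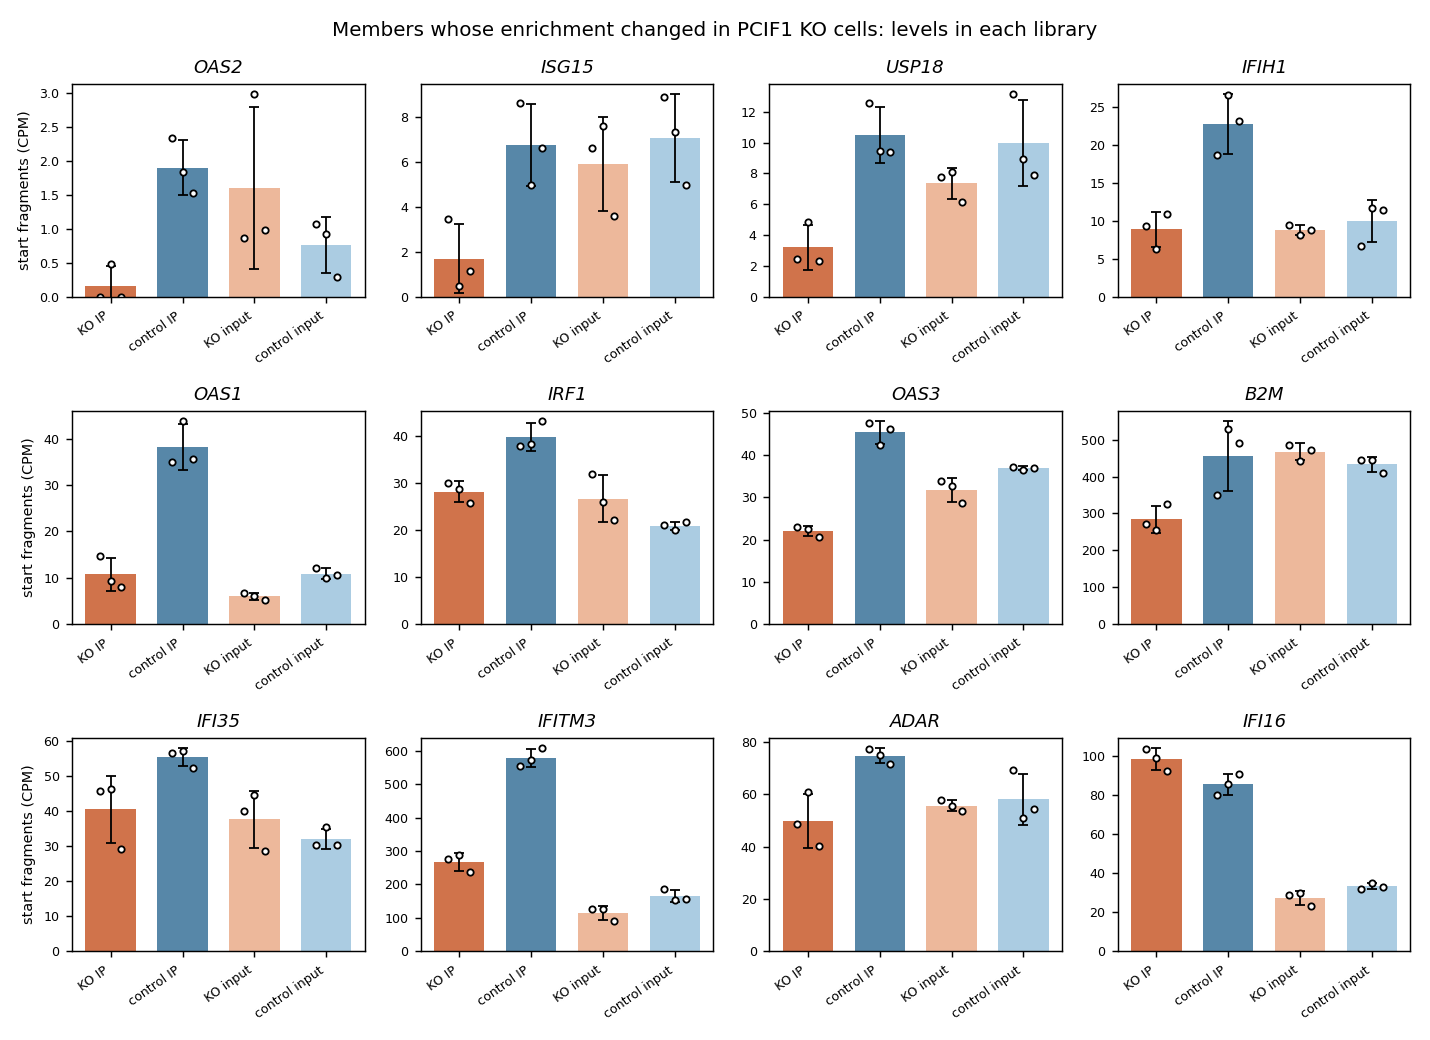
CPM in each library (circles) for the 12 members whose enrichment changed in KO cells, with group means as bars and the SD of 3 libraries as whiskers. In all but IFI16 the mean of the KO IPs lies below that of the control IPs, as in OAS3 (20.6 to 23.1 against 42.5 to 47.7 CPM), and for IFI16 the KO IPs (92.2 to 103 CPM) lie above the control IPs (79.9 to 90.4 CPM).

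The OAS genes encode enzymes that sense double-stranded RNA and make oligoadenylates, which switch on RNase L. OAS3 gave 23.1, 22.4 and 20.6 CPM in KO IPs, 47.7, 42.5 and 46.2 CPM in IPs of control cells, 33.9, 32.7 and 28.6 CPM in KO inputs, and 37.4, 36.4 and 37.1 CPM in control inputs. The KO IPs were the lowest of all 12 libraries and the control IPs the highest. Its enrichment was -0.52 ± 0.12 in KO cells and 0.30 ± 0.12 in control cells, a change of -0.82 ± 0.18 (adjusted p = 0.00147), while its input change of -0.22 ± 0.12 did not pass (adjusted p = 0.298).

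OAS1 gave 14.7, 9.25 and 8.01 CPM in KO IPs, 34.9, 43.8 and 35.5 CPM in IPs of control cells, 6.60, 5.95 and 5.20 CPM in KO inputs, and 12.1, 9.85 and 10.5 CPM in control inputs. Neither the IPs nor the inputs of the genotypes overlapped, and KO cells were lower in both. The enrichment was 0.80 ± 0.22 in KO cells and 1.81 ± 0.22 in control cells, so that the antibody still held these fragments over input in KO cells. The change of enrichment was -1.01 ± 0.32 (adjusted p = 0.0218), and the call was lost without control IP 2, KO input 1 or control input 2 (adjusted p 0.0529 to 0.0701). The input change was -0.86 ± 0.22 (adjusted p = 0.0153), and this call was lost without KO input 3 (adjusted p = 0.0593) or control input 1 (adjusted p = 0.0722).

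OAS2 was read from few fragments. KO IPs gave 0, 0.487 and 0 CPM, control IPs 2.33, 1.84 and 1.52 CPM, KO inputs 0.861, 2.98 and 0.974 CPM, and control inputs 1.07, 0.916 and 0.292 CPM. The 3 KO IPs held 1 read together, against 23 in the control IPs, a ratio of CPM of 0.0897 with an exact 95% interval of 0.00218 to 0.552 that covers counting error only. The fitted change of enrichment of -4.67 ± 1.22 (adjusted p = 0.00713) depends on the small count added before the logarithm, and it was -1.84 with 1 CPM added. OAS2 and OAS3 start inside a gene record on the opposite strand, as do IRF1, IFITM3 and IFI6 below, and since the strand setting of the counting is not known, reads from such a record cannot be told apart from theirs.

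OASL, an OAS relative without the enzyme activity, gave 2.94, 0.487 and 0 CPM in KO IPs, 3.26, 3.67 and 4.57 CPM in IPs of control cells, 0, 0.812 and 0.325 CPM in KO inputs, and 1.88, 2.52 and 2.33 CPM in control inputs. KO libraries lay below control libraries in the IPs and in the inputs alike. The change of enrichment was 0.00 ± 1.44, the input change -2.94 ± 1.02 (adjusted p = 0.0698) and the IP change -2.94 ± 1.02 (adjusted p = 0.0223), the last not called without KO IP 3, control IP 2 or control IP 3 (adjusted p 0.0564 to 0.139, with a value of -1.57 without KO IP 3).

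Among other genes of RNA sensing, IFIH1 and ADAR were called lower in change of enrichment, and the rise of EIF2AK2 did not pass. IFIH1, which encodes MDA5, a sensor of long double-stranded RNA, gave 9.32, 6.33 and 10.9 CPM in KO IPs, 18.6, 26.5 and 23.1 CPM in IPs of control cells, 9.47, 8.12 and 8.77 CPM in KO inputs, and 6.72, 11.7 and 11.4 CPM in control inputs. The control IPs stood above all other libraries and the KO IPs overlapped both sets of inputs. Its enrichment was -0.02 ± 0.25 in KO cells and 1.22 ± 0.25 in control cells, a change of -1.24 ± 0.36 (adjusted p = 0.0128), with an input change of -0.13 ± 0.25 (adjusted p = 0.815). Its annotated first base is C, and its start lies within 200 bases of GCA on the opposite strand.

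ADAR, the adenosine-to-inosine RNA editing enzyme, gave 48.6, 60.9 and 40.1 CPM in KO IPs, 77.6, 75.3 and 71.8 CPM in IPs of control cells, 58.0, 55.5 and 53.6 CPM in KO inputs, and 69.3, 50.9 and 54.3 CPM in control inputs. The IPs did not overlap between genotypes and the inputs did. The change of enrichment was -0.56 ± 0.20 (adjusted p = 0.0420), a call that was lost in 9 of the 12 fits that left out 1 library, all but those without KO IP 2, KO input 3 or control input 1 (adjusted p 0.0573 to 0.118). EIF2AK2 encodes PKR, a kinase that halts translation when it binds double-stranded RNA. It gave 43.2, 51.6 and 44.1 CPM in KO IPs, 31.9, 27.8 and 39.9 CPM in IPs of control cells, 21.8, 25.7 and 23.1 CPM in KO inputs, and 28.8, 20.4 and 26.0 CPM in control inputs. The IPs were apart, with KO above control, and the inputs overlapped. The IP change of 0.49 ± 0.16 was called (adjusted p = 0.0159) and was lost without KO IP 2 or control IP 2 (adjusted p 0.0685 and 0.0957) and on ribosomal protein centring (-0.0024, adjusted p = 0.991). The change of enrichment of 0.57 ± 0.23 did not pass (adjusted p = 0.0661). DDX60, a helicase-like protein that promotes RNA sensing, had 0.981 to 1.72 CPM in KO IPs and 3.73 to 4.57 CPM in control IPs, with a change of enrichment of -1.45 ± 0.57 (adjusted p = 0.0637) from 2 to 18 reads a library.

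Some of the IFIT genes encode proteins that bind foreign RNA 5′ ends. The starts of IFIT2 and IFIT3 were enriched in both genotypes, that of IFIT1 passed in KO cells alone and that of IFIT5 in neither. IFIT3 gave 21.1, 19.5 and 24.0 CPM in KO IPs, 20.0, 26.2 and 30.2 CPM in IPs of control cells, 4.88, 4.87 and 6.50 CPM in KO inputs, and 6.72, 5.73 and 5.84 CPM in control inputs. IPs and inputs of IFIT3 stood far apart, while the genotypes overlapped in each. Its enrichment was 1.98 ± 0.21 in KO cells and 2.03 ± 0.21 in control cells, a change of -0.05 ± 0.30 (adjusted p = 0.922). IFIT2 had an enrichment of 2.54 ± 0.38 in KO cells and 1.75 ± 0.38 in control cells, and its change of 0.79 ± 0.54 did not pass (adjusted p = 0.298). IFIT5, which binds RNA with a triphosphate end, was not called in any comparison, with a change of enrichment of 0.20 ± 0.41 and an input change of 0.14 ± 0.29.

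IFIT1 gave 3.92, 2.92 and 1.14 CPM in KO IPs, 1.63, 2.89 and 4.06 CPM in IPs of control cells, 0, 0 and 0.325 CPM in KO inputs, and 0.269, 1.15 and 1.17 CPM in control inputs. The genotypes overlapped in the IPs, and among the inputs 1 KO library overlapped 1 control library. The KO inputs held 1 read together, against 10 in the control inputs, a ratio of CPM of 0.112 with an exact 95% interval of 0.00259 to 0.789. The KO IPs held 16 reads, a ratio to the KO inputs of 28.1 with an interval of 4.37 to 1179. The fitted input change of -2.61 ± 0.81 was called (adjusted p = 0.0420), and was -0.72 (adjusted p = 0.202) with 1 CPM added. The call was also lost without any 1 control IP, without KO input 1 or 2, and without control input 2 or 3 (adjusted p 0.0541 to 0.158). The change of enrichment of 2.44 ± 1.14 did not pass (adjusted p = 0.120). IFIT1, IFIT2 and IFIT3 start inside the LIPA gene record on the opposite strand, and IFIT5 within 200 bases of it, so that their reads are uncertain.

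ISG15, a ubiquitin-like protein that is attached to others during the response, gave 3.43, 0.487 and 1.14 CPM in KO IPs, 8.62, 4.99 and 6.60 CPM in IPs of control cells, 6.60, 7.58 and 3.57 CPM in KO inputs, and 8.87, 7.33 and 4.96 CPM in control inputs. Every KO IP lay below every other library, and the 2 sets of inputs overlapped. Its enrichment was -2.09 ± 0.50 in KO cells and -0.06 ± 0.50 in control cells, a change of -2.03 ± 0.71 (adjusted p = 0.0384) with an input change of -0.28 ± 0.50 (adjusted p = 0.806). USP18 removes ISG15 from proteins and restrains the interferon receptor. It gave 2.45, 4.87 and 2.29 CPM in KO IPs, 12.6, 9.45 and 9.39 CPM in IPs of control cells, 7.75, 8.12 and 6.17 CPM in KO inputs, and 13.2, 8.94 and 7.88 CPM in control inputs. As with ISG15, the KO IPs were the lowest libraries and the inputs overlapped. USP18 changed by -1.34 ± 0.44 in enrichment (adjusted p = 0.0262) and by -0.42 ± 0.31 in input (adjusted p = 0.465). The enrichment call was lost for ISG15 without KO IP 2 or 3, control IP 1 or 3, KO input 1 or 2, or control input 2 or 3 (adjusted p 0.0521 to 0.0991), and for USP18 without control IP 1, KO input 1 or 2, or control input 2 or 3 (0.0562 to 0.0747).

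Among the transcription factors, IRF1, which carries the interferon gamma response, gave 29.9, 28.7 and 25.8 CPM in KO IPs, 37.7, 38.3 and 43.2 CPM in IPs of control cells, 31.8, 26.0 and 22.1 CPM in KO inputs, and 21.0, 19.9 and 21.6 CPM in control inputs. KO IPs lay below control IPs, while KO inputs lay above control inputs. The enrichment was 0.09 ± 0.15 in KO cells and 0.93 ± 0.15 in control cells, a change of -0.84 ± 0.21 (adjusted p = 0.00496), and the input change of 0.34 ± 0.15 did not pass (adjusted p = 0.162). The opposite-strand record over its start leaves the IRF1 reads uncertain, and IRF9 starts inside another record on its own strand. IRF9, the DNA-binding partner of STAT2, had 0.490 to 2.29 CPM in KO IPs and 4.42 to 6.56 CPM in control IPs, an IP change of -2.02 ± 0.49 (adjusted p = 0.00217). Its change of enrichment of -1.70 ± 0.70 did not pass (adjusted p = 0.0755), nor did its input change of -0.32 ± 0.49 (adjusted p = 0.763). STAT2 overlapped between genotypes in IPs and inputs, with a change of enrichment of -0.51 ± 0.57 (adjusted p = 0.543). For IRF7, which drives interferon alpha genes, 2 reads in the KO IPs stood against 11 in the control IPs, a ratio of 0.375 with an interval of 0.0404 to 1.72, so that no difference was detectable at this depth.

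The IFITM proteins sit in membranes and hinder viral fusion, and their genes are related neighbours on chromosome 11. Reads could be split where their sequences are alike, which was not tested. IFITM3 also starts inside a record on the opposite strand and IFITM1 inside one on its own strand. IFITM3 gave 277, 287 and 238 CPM in KO IPs, 555, 573 and 608 CPM in IPs of control cells, 127, 125 and 89.3 CPM in KO inputs, and 187, 153 and 155 CPM in control inputs. KO libraries were below control libraries in both the IPs and the inputs, with no overlap, and every IP was above every input of its genotype. The input change was -0.55 ± 0.12 (adjusted p = 0.00578), called with any 1 library left out and not without the mean-variance trend (adjusted p = 0.0638). The enrichment was 1.24 ± 0.12 in KO cells and 1.81 ± 0.12 in control cells, a change of -0.57 ± 0.17 (adjusted p = 0.0180) that was lost without KO input 1, KO input 2 or control input 2 (adjusted p 0.0531 to 0.0579). IFITM2 gave 258, 259.6 and 199 CPM in KO IPs and 314, 345 and 339 CPM in control IPs, with a change of enrichment of -0.26 ± 0.16 (adjusted p = 0.239) and an input change of -0.22 ± 0.11 (adjusted p = 0.245). IFITM1 had 0.490 to 1.14 CPM in KO IPs and 3.55 to 6.03 CPM in control IPs, with a change of enrichment of -0.08 ± 1.07 and an input change of -2.24 ± 0.76 that did not pass (adjusted p = 0.0634).

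B2M, the light chain of class I antigen-presenting molecules, was the member with the highest level. It gave 272, 256 and 326 CPM in KO IPs, 349.6, 529.8 and 491 CPM in IPs of control cells, 487, 442 and 473 CPM in KO inputs, and 446, 446 and 409 CPM in control inputs. The KO IPs were the lowest libraries, and the inputs of the genotypes overlapped. Its enrichment was -0.72 ± 0.13 in KO cells and 0.05 ± 0.13 in control cells, a change of -0.78 ± 0.18 (adjusted p = 0.00252) with an input change of 0.11 ± 0.13 (adjusted p = 0.675). B2M starts within 200 bases of PATL2 on the opposite strand, whose reads cannot be told apart from its own if strand was not used.

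IFI16, a nuclear sensor of DNA, gave 103, 98.9 and 92.2 CPM in KO IPs, 79.9, 85.5 and 90.4 CPM in IPs of control cells, 28.7, 29.5 and 23.1 CPM in KO inputs, and 32.0, 35.1 and 33.0 CPM in control inputs. KO was above control in the IPs and below it in the inputs, without overlap in either. Its enrichment was 1.86 ± 0.12 in KO cells and 1.35 ± 0.12 in control cells, a change of 0.51 ± 0.17 (adjusted p = 0.0263), lost without KO IP 1, control IP 1 or 2, KO input 3 or control input 2 (adjusted p 0.0506 to 0.0688). Neither its input change (-0.31 ± 0.12, adjusted p = 0.106) nor its IP change (0.20 ± 0.12, adjusted p = 0.161) passed.

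IFI35 gave 45.6, 46.3 and 29.2 CPM in KO IPs, 56.6, 56.9 and 52.3 CPM in IPs of control cells, 39.9, 44.4 and 28.6 CPM in KO inputs, and 30.1, 35.3 and 30.4 CPM in control inputs. KO library 3 was the lowest of its group in both the IPs and the inputs, and the IPs were apart between genotypes. The change of enrichment of -0.70 ± 0.25 (adjusted p = 0.0394) was lost in 8 of the 12 fits that left out 1 library, all but those without KO IP 1, KO IP 2, KO input 3 or control input 2 (adjusted p 0.0533 to 0.116). IFI6 overlapped between genotypes in the IPs (0.981 to 3.90 CPM in KO cells and 3.41 to 7.87 CPM in control cells), with an IP change of -1.52 ± 0.43 (adjusted p = 0.00710) and a change of enrichment of -1.15 ± 0.61 that did not pass (adjusted p = 0.176). IFI44 and IFI44L were called in no comparison.

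PARP9 and DTX3L encode an ADP-ribosyltransferase and its ubiquitin ligase partner, and PARP14 another enzyme of the PARP family. PARP9 gave 6.87, 2.92 and 8.01 CPM in KO IPs, 2.33, 2.62 and 3.55 CPM in IPs of control cells, 2.30, 2.71 and 3.90 CPM in KO inputs, and 3.49, 2.75 and 4.96 CPM in control inputs. KO IP 2 lay among the control IPs and the other KO IPs above them, and the change of enrichment of 1.26 ± 0.59 did not pass (adjusted p = 0.116). DTX3L had 31.4 to 32.6 CPM in KO IPs and 33.5 to 38.9 CPM in control IPs, with a change of enrichment of -0.11 ± 0.18 (adjusted p = 0.687). PARP9 and DTX3L start within 200 bases of each other on opposite strands, so that their reads cannot be told apart if strand was not used. PARP14 had 14.7 to 23.5 CPM in KO IPs, 20.7 to 23.9 CPM in control IPs, 7.85 to 10.6 CPM in KO inputs and 9.63 to 13.5 CPM in control inputs. The antibody held it over input in both genotypes, and its change of enrichment was -0.05 ± 0.30 (adjusted p = 0.923).

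Levels before the antibody differed less. Input fragments of OAS1, IFITM3 and IFIT1 were lower in KO cells and no member was called higher, with 5.67% of all genes called lower and 5.56% higher, so that a count of 3 in 32 is not far from that of all genes. Of the 32 members 26 had an input change below 0, against 51.5% of all genes. At an unadjusted p under 0.05, 7 members differed (6 lower and 1 higher), beside 23.7% of all genes. The median input change was -0.25 over the members and -0.02 over all genes. Genes within 1 Mb had a median input change of 0.05 around OAS1 (21 genes), 0.14 around IFITM3 (40 genes) and 0.00 around IFIT1 (8 genes). Fewer cells of a type and less RNA per cell cannot be told apart in such bulk samples.

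The IP libraries hold both kinds of change, since the IP change of a gene is by construction the sum of its input change and its change of enrichment. In the IPs 17 members were lower in KO cells, beside 26.0% of all genes, and EIF2AK2 was higher, beside 23.0%. The median IP change was -0.55, against -0.04 over all genes and -0.16 over protein-coding genes. On ribosomal protein centring, with a median over all genes of -0.54, 22 members were lower and 0 higher, and the share of all genes is not given. Besides OASL and EIF2AK2 above, leaving out 1 library ended the IP call of IFI35 (without KO IP 3, control IP 1 or control IP 2, adjusted p 0.0737 to 0.178, and -0.27 in place of -0.48 without KO IP 3) and of IFITM1 (without KO IP 1 or control IP 2, adjusted p 0.0527 and 0.0704).

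Set side by side, the parts of the IP change differed between members. OAS1 had an IP change of -1.87, made of an input change of -0.86 and a change of enrichment of -1.01. IFITM3 had -1.12, made of -0.55 and -0.57. In OASL and IFITM1 the IP change of -2.94 and -2.32 came with an input change of -2.94 and -2.24 and a change of enrichment of 0.00 and -0.08, although neither part passed the test. In ISG15 (-2.31), IFIH1 (-1.38), OAS3 (-1.04), B2M (-0.67) and ADAR (-0.61) the input change lay between -0.28 and 0.11. In IRF1 (-0.50) and IFI35 (-0.48) the input change was above 0 (0.34 and 0.22, neither called), and the change of enrichment larger in size than the IP change. In IFIT1 the input change of -2.61 and the change of enrichment of 2.44 nearly cancelled, leaving an IP change of -0.17 ± 0.81 (adjusted p = 0.878). The input change and the change of enrichment use the same inputs with opposite sign, so that their errors are tied.

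**Figure D3:**
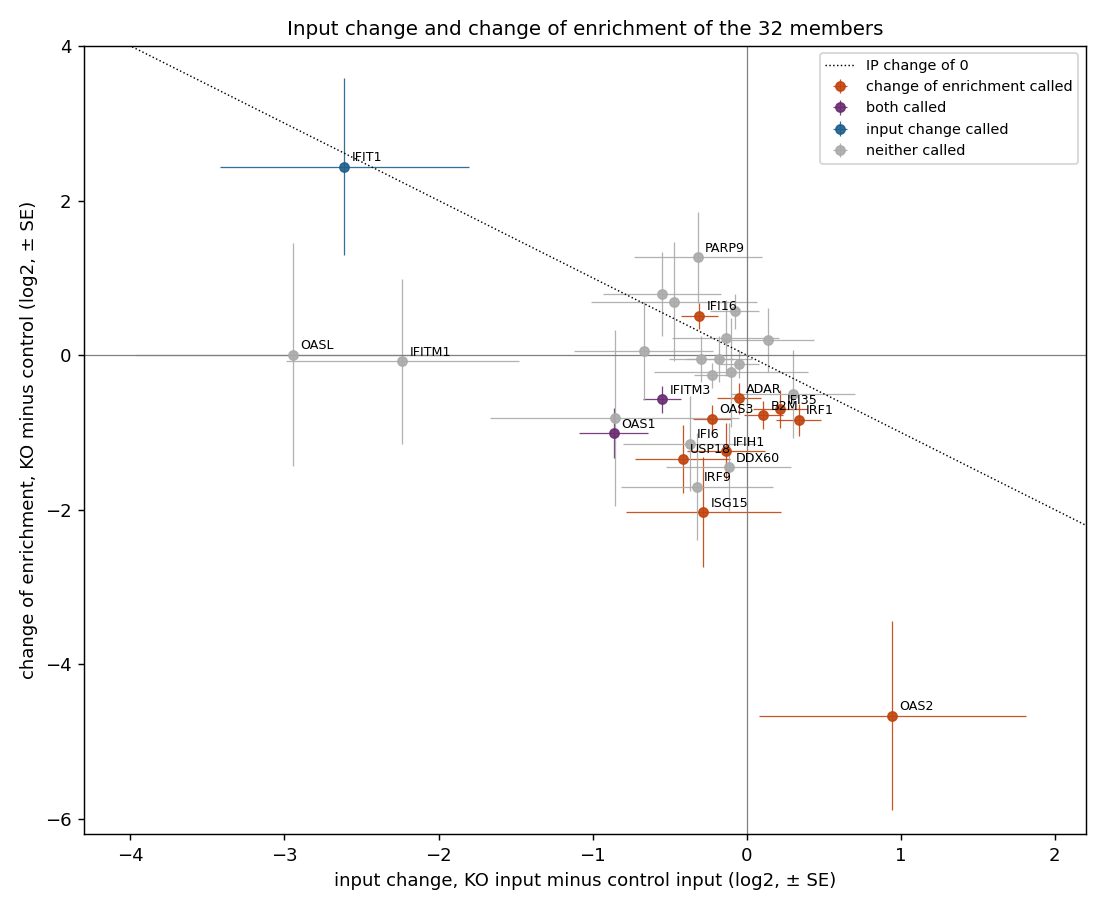
Input change (x axis, KO input minus control input, log2) and change of enrichment (y axis, KO minus control, log2) of the 32 members, with standard errors, coloured by which passed the test. Points below the dotted line have a negative IP change, as OAS1 does with -0.86 and -1.01, and OASL and IFITM1 lie near 0 on the y axis with input changes of -2.94 and -2.24.

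What could be called depended on the level. Of the 6 members with a mean level under 1 log2 CPM, 1 (OAS2) was called for the change of enrichment, at a median standard error of 1.14. Of the 12 members from 1 to under 3, ISG15 and USP18 were called, at a median standard error of 0.58. Of the 14 members at 3 or above, 9 were called, at a median standard error of 0.20. The share of all genes called at each level is not given. The members were not set against genes of like level. A member with few reads that missed the threshold, such as SAMD9 or IRF9, is therefore not shown to be unchanged.

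**Figure D4:**
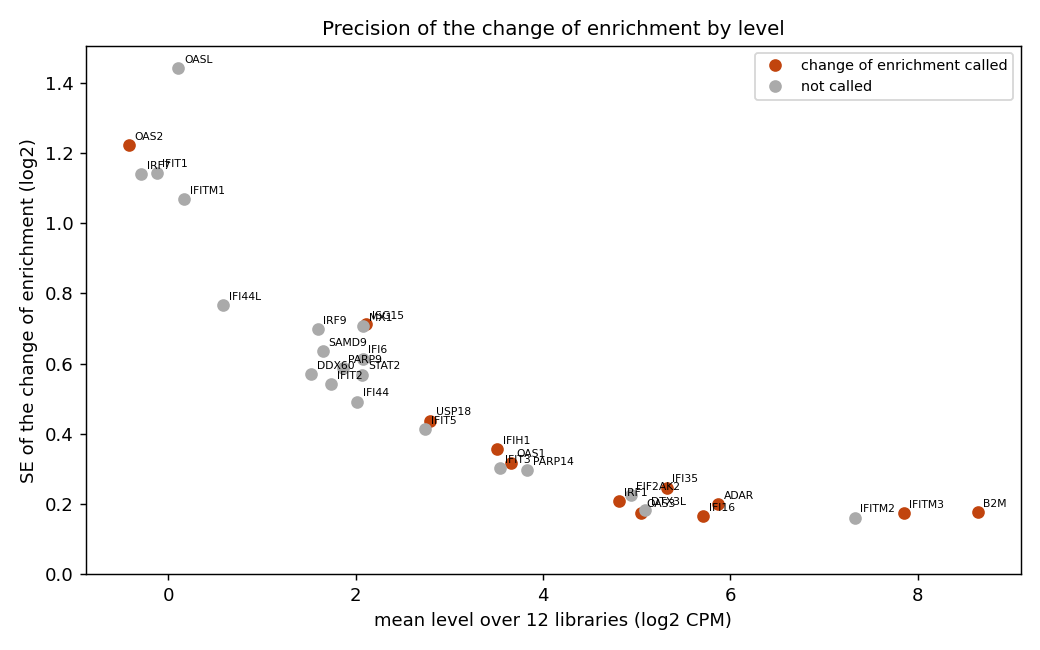
Standard error of the change of enrichment (log2) against the mean level over 12 libraries (log2 CPM), 1 point a member, orange where the change was called. Standard errors run from over 1 at the lowest levels to about 0.20 among the 14 members at 3 log2 CPM or above, where 9 of the calls lie.

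The first transcribed base, which decides whether m6Am can form, was read from the canonical GENCODE transcript. It was A in 12 members (37.5%), C in 4, G in 16 and T in none, against A in 46.1% of protein-coding genes. The 12 A members were IFIT1, IFIT5, OAS1, OAS2, OAS3, OASL, STAT2, IRF1, USP18, PARP9, IFI16 and B2M. Their median change of enrichment was -0.64, with 6 called lower and 1 higher, beside 27.6% and 6.24% of the protein-coding genes with that base. It was -0.24 in the 4 C members, of which 2 were lower, beside 12.1%, and -0.24 in the 16 G members, of which 3 were lower, beside 13.8%. Over protein-coding genes the medians were -0.37 for A, 0.10 for C and -0.06 for G. Median control enrichment was 0.84, 0.51 and 0.39 in the A, C and G members, against 0.32, -0.51 and -0.17 over protein-coding genes. These are descriptions without a test, and the start that the authors counted may be another one. The gene record begins 17946 bases upstream of the canonical start in IRF1, 19827 in ADAR, 12359 in ISG15, 9939 in IFI16 and 8615 in IFITM3, and which was used is not given in the sources used here. Among the members called lower, the canonical start is G in ISG15, IFITM3 and ADAR and C in IFIH1 and IFI35. RefSeq lists further starts of ADAR, which begin with T, A and G. It also lists a start with G for the A members IFI16 and PARP9.

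Other genes of the pathway were read from 4 lists with 92 genes in the table that are not members. Of these, 17 (18.5%) were lower and 3 (3.26%) higher in change of enrichment, with a median of -0.21. In input 6 (6.52%) were lower and 3 higher, with a median of -0.09. Set beside the shares of all genes given above, the shares called lower are near them. The share called higher in change of enrichment lies below the 13.0% of all genes and the 10.2% of protein-coding genes. In input the share called higher was 3.26%, beside 5.56% of all genes. None of the 6 interferon ligand and receptor genes was called for either. Among 15 genes of JAK-STAT signalling, the phosphatase gene PTPN11 (-1.02 ± 0.18, adjusted p = 0.000220) and STAT3 (-0.69 ± 0.19, adjusted p = 0.0105) fell in enrichment. In input, the phosphatase gene PTPN2, which acts on JAK1, fell by 1.14 (SE 0.12), and PIAS2 (0.52 ± 0.13) and JAK1 (0.44 ± 0.12) rose. PTPN2 and PIAS2 are on chromosome 18, where the 17 genes within 1 Mb of PTPN2 had a median input change of -0.63 with 8 called lower, and the 13 around PIAS2 had one of 0.34 with 5 called higher.

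Among 14 genes of nucleic acid sensing, TICAM1, the adaptor of TLR3, rose by 1.39 ± 0.24 in enrichment and TRAF3 by 0.94 ± 0.21, TRAF6 fell by 2.03 (SE 0.40), and no input change was called. Of 57 further interferon-induced genes, 13 (22.8%) were lower and 1 (1.75%) higher in change of enrichment, with a median of -0.33. Of protein-coding genes 19.9% were called lower and 10.2% higher. The 4 with the smallest adjusted p were LGALS3BP (-1.22 ± 0.17), the torsin gene TOR1B (-2.17 ± 0.32), the immunoproteasome gene PSMB9 (-1.08 ± 0.17) and CNP (-0.97 ± 0.17). In input 5 (8.77%) were lower, beside 6.08% of protein-coding genes, and 1 was higher, with CASP1 (-1.63 ± 0.44), the cytidine deaminase genes APOBEC3G (-1.08 ± 0.27) and APOBEC3C (-0.79 ± 0.19) and TRIM38 (-1.03 ± 0.24) named by the same rule.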

How the data were processed

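5′ end fragments of MEL624 PCIF1 KO and control cells were measured in 12 second-stage libraries, and the 18 first-stage libraries (8 antibodies, 1 library each) are not analysed here. The deposited values are log2 CPM at the transcription start region of each gene, made by the authors. The submitters' processing notes name edgeR 3.12.1 in R 3.3.3, featureCounts, HISAT2 2.0.4, deepTools 3.0.2 and SAMtools 1.7, without saying what each did, and the build hg38. The sources used here do not give the start window, annotation, strand setting or filter. With an added count of 0.25 on average, scaled to library size, 100% of the values equal whole reads within 0.01, and the printed CPM and reads derive from these. No molecular identifiers are named, so that reads may repeat molecules and intervals cover counting error only. Columns are numbered 1 to 3 while the labels use letters, so that columns were assigned to groups only.

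In R 4.3.3, limma 3.58.1 was run on all 12 libraries at once (4 group means, trended prior variance), and differences with a Benjamini-Hochberg adjusted p under 0.05 over all 16009 genes were called. All 16009 pass the filter (log2 value of at least 0 in 3 libraries). The count models planned as alternatives were not run because the deposited unit is log2. The p-values cover only the spread between these samples, which may be partly technical. Libraries of a group all differed by more than the sampling noise. The fit was tested on simulated data, with changes set only in genes above a minimum level, so that members with few reads are not covered. In change of enrichment it recovered 44.8% of 1.5-fold and 80.6% of 2-fold changes, with 4 false calls. In KO enrichment it recovered 64.2% and 94%, with 24 false calls. Gene names, starts and first bases come from GENCODE 44 (15903 genes matched, 14485 with a name) and promoters from RefSeq. Members, gene lists and tests were chosen with earlier results of these data known. Every member is named. Those called for change of enrichment or input, and the 3 highest and 3 lowest in control enrichment, have their value in every library. Up to 4 genes of each pathway list with the smallest adjusted p are named for each of these 2 comparisons. A result that this rule names is not reported here.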

Additional observations from a re-analysis of the deposited data

Results flagged for a closer look

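For 12 members the enrichment differed between the genotypes by the interaction term of the limma fit, with adjusted p under 0.05. The log2 change of enrichment, KO minus control, was -4.67 in OAS2, -2.03 in ISG15, -1.34 in USP18, -1.24 in IFIH1, -1.01 in OAS1 and -0.84 in IRF1. It was -0.82 in OAS3, -0.78 in B2M, -0.70 in IFI35, -0.57 in IFITM3, -0.56 in ADAR and 0.51 in IFI16. In OAS2 the KO IPs held 1 read in all. OAS1, OAS2, OAS3, USP18, IRF1, B2M and IFI16 have an A at the canonical GENCODE start and the other 5 a G or C there.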

How the results depend on the processing

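Alternatives were centring on the median of all genes or on ribosomal protein mRNAs, 1 CPM added before the logarithm, a minimum mean of 3 log2 CPM, no filter, no mean-variance trend, only the compared groups in the fit, a replicate block, each library left out in turn and, chosen after seeing the data, voom weights on the recovered reads. Since all genes pass the filter, the fit without it gives the same values as the fit described above. The planned edgeR and DESeq2 fits were not run, as the deposited unit is log2. Of the single values called, 3 reversed, all on ribosomal protein centring: OAS3 in KO enrichment (0.10), IFI16 in change of enrichment (-0.0052) and EIF2AK2 in IP change (-0.0024). That centring raised the control enrichment count to 25 members, against 15. It moves the control enrichment of every gene by the same amount, with the median over all genes going from -0.01 to 1.13. The share of all genes called on that centring is not given. Why ribosomal protein mRNAs differ from other genes here was not tested. With the minimum mean, 14 members were left to test, and 9 were called in KO enrichment, against 18, and 10 in IP change, against 18. Without the trend 1 member, OAS1, was called in input change, against 3. Leaving out 1 library gave 6 to 13 calls in change of enrichment, 11 to 17 in control enrichment, 15 to 21 in KO enrichment, 2 to 4 in input change and 14 to 18 in IP change. Of 66 single values called, 11 lost the call without the trend and 4 with voom weights. With 1 CPM added 2 lost it, and on median centring 0. On ribosomal protein centring 6 lost it, and the 3 that reversed were not called either. With only the compared groups in the fit, 6 of 54 lost it. Same-numbered columns of different groups correlated in their deviations from the group means with r from -0.08 to 0.24, over 0.1 in 12 of 18 pairs and with number 2 under 0.1 in each. In 15 of the 18, and in all 6 of an IP with the input of its genotype, the same number was the best match. The titles give the IP and input of 1 letter the same replicate, but the columns carry numbers, so that the pairing by number is a hint from the data. A replicate block by column number gave 14 calls in change of enrichment, 14 in control enrichment, 18 in KO enrichment, 3 in input change and 19 in IP change, and of the single calls it ended that of STAT2 in control enrichment (adjusted p = 0.0562). Depth limits members under 1 log2 CPM most, where the median standard error of the change of enrichment was 1.14.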
